A study of Oryza sativa Japonica Group with 10 samples.

Results

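The OsC3H genes of rice encode proteins with CCCH zinc fingers, and their transcript levels were followed in seedlings moved into a low-phosphate solution. A gene was taken as a member when its symbol or a synonym, in the array's annotation or in the RefSeq gene table, was OsC3H followed by a number. This rule found 53 genes among the 39387 genes of the table. Of these, 50 had a probe set annotated to that gene alone, out of 17905 genes with such a probe set, and each was represented by the probe set with the highest mean log2 signal over the 10 arrays. OsC3H38 (U2AF35B), OsC3H56 and OsC3H67 had none and were not analysed here. The seedlings were one week old, of the japonica cultivar Zhonghua 10, and came from 5 groups of 2 arrays each, which were plants kept on sufficient phosphate (the control) and plants exposed to low phosphate (low Pi) for 6, 24, 48 or 72 h. The labels call the arrays of a group biological replicates and state that RNA was taken from independent plants. No source used here gives the harvest time of the control, and no control was labelled for each time, so low phosphate cannot be told apart from time of day or from seedling age. Whole seedlings were used, and in such bulk samples fewer cells of a type and less RNA per cell cannot be told apart.

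In a CCCH finger a zinc ion is held by cysteines and a histidine. Many proteins with such fingers bind RNA, and members studied in plants and animals act in splicing, in messenger RNA decay or in the control of translation, while others act on transcription. In rice, members of the family have been tied to leaf senescence, plant architecture, flowering time, disease resistance and drought tolerance. Low phosphate sets off a transcriptional program in rice that raises phosphate uptake and remobilisation, and the SPX genes are widely used as its markers.

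The deposited values were MAS5 signals, 1 per probe set and array, on a linear scale that had been brought to the same trimmed mean of 500.1 on all 10 arrays. The median signal of an array was 69.3 and 68.5 after 72 h and lay between 47.6 and 54.2 in the other 4 groups. Some control transcripts on the array, probed at both ends, also differed at 72 h and, by less, at 6 h, and some of these differed at 48 h. The log2 ratio of the 3′ to the 5′ signal of a rice actin transcript was 3.46 ± 0.32 after 6 h and 6.10 ± 1.07 after 72 h, against 2.04 ± 0.03 in the control (SD, n = 2 each). For DapX, a bacterial transcript probed on the array, it was 3.50 ± 0.32 after 6 h and 6.03 ± 0.53 after 72 h, against 2.1 ± 0.04 in the control (SD, n = 2 each). After 48 h the actin ratio was 2.42 ± 0.17 and the DapX ratio 2.1 ± 0.16 (SD, n = 2 each). A second pair of rice actin probe sets read 2.94 ± 0.54 after 6 h and 2.93 ± 0.2 after 48 h. In the control that pair read 1.11 ± 0.19 (SD, n = 2 each). Further control transcripts shifted too. ThrX read 6.88 ± 1.43 after 6 h, 5.21 ± 0.05 after 48 h and 8.7 ± 0.1 after 72 h. In the control ThrX read 3.81 ± 0.79 (SD, n = 2 each). LysX read 2.74 ± 0.21 after 72 h and 1.64 ± 0.0 in the control (SD, n = 2 each). The ratios of some others moved little, such as BioC. It read -0.04 ± 0.02 after 6 h and 0.04 ± 0.21 after 72 h, against 0.09 ± 0.14 in the control (SD, n = 2 each). The part of these shifts in the 6 h, 48 h and 72 h values of the OsC3H genes was not tested. The dependence of the 72 h values on the scaling of the arrays is given with the 72 h results.

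A probe set entered the test when its mean log2 signal over all arrays was above 4.579, a signal of 23.9, and 45 of the 50 OsC3H genes passed. The 5 others were OsC3H1, OsC3H34, OsC3H40, OsC3H43 and OsC3H47, and they are described by their signals. A change is the log2 difference between group means, with its standard error from a limma fit over all 10 arrays, and it was called when the p-value, adjusted over 34355 probe sets, was under 0.05.

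The family as a whole did not move one way. At 6 h, 10 of the 45 genes were higher and 16 lower than in the control, against a background of 28.6% higher and 22.4% lower among all 16081 tested genes. At 24 h, 15 were higher and 8 lower (all genes 29.4% and 25.2%). At 48 h, 9 were higher and 7 lower (all genes 28.5% and 17.2%), and at 72 h, 15 were higher and 7 lower (all genes 31.1% and 19.8%). The members' shares were 22.2% and 35.6% after 6 h, 33.3% and 17.8% after 24 h, 20% and 15.6% after 48 h, and 33.3% and 15.6% after 72 h. These shares lie around those of all genes, and the largest departure was the 35.6% lower at 6 h, a time at which the actin and DapX ratios were also above the control. The higher calls at 6 h depended on single arrays and on the fit, with 1 higher and 13 lower without the 6 h array of replicate 2, 6 higher and 16 lower without that of replicate 1, and 3 higher and 15 lower without the control array of replicate 2. Without the intensity trend they were 4 higher and 15 lower. The median change of the members was 0.00 after 6 h, 0.17 after 24 h, 0.14 after 48 h and 0.15 after 72 h, where the median of all tested genes was 0.09, 0.06, 0.14 and 0.15.

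**Figure D1:**
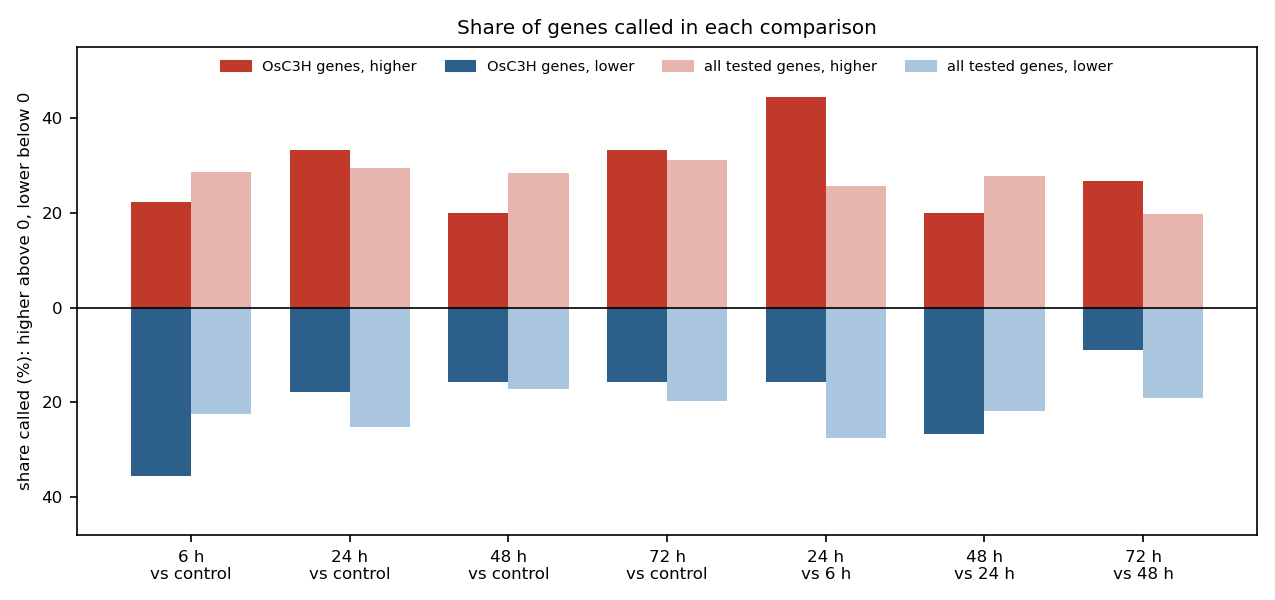
Share of genes called in each comparison, in percent, with higher calls above 0 and lower calls below 0. Dark bars are the 45 tested OsC3H genes and pale bars all 16081 tested genes. At 6 h 35.6% of the OsC3H genes were lower against 22.4% of all genes, and from 6 to 24 h 44.4% were higher against 25.7%.

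Most of the genes nonetheless differed somewhere in the course. An F-test over the 5 groups called 39 of the 45, where the background was 79.3%. The 6 not called were OsC3H3, OsC3H10, OsC3H11, OsC3H23, OsC3H27 and OsC3H39. Over the 4 comparisons with the control, 4 genes were called at no time (OsC3H10, OsC3H16, OsC3H23 and OsC3H27), 16 at 1 time, 9 at 2, 11 at 3 and 5 at all 4. Among all tested genes the shares were 19.4% at no time, 18.9% at 1, 21.1% at 2, 21.2% at 3 and 19.3% at all 4. The 5 were OsC3H2, OsC3H12 and OsC3H66, higher each time, and OsC3H37 and OsC3H60, lower each time. These are 6.67% and 4.44% of the members, beside 9.53% of all tested genes higher and 5.94% lower at all 4 times. Another 5 genes were higher at one time and lower at another, OsC3H19, OsC3H31, OsC3H33, OsC3H35 and OsC3H65, which is 11.1% of the members beside 15.6% of all tested genes. The 4 comparisons share the control arrays, so these calls are not independent of one another. The range between a gene's highest and lowest group mean had a median of 0.95 for the members and 0.93 for all genes, on the log2 scale.

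**Figure D2:**
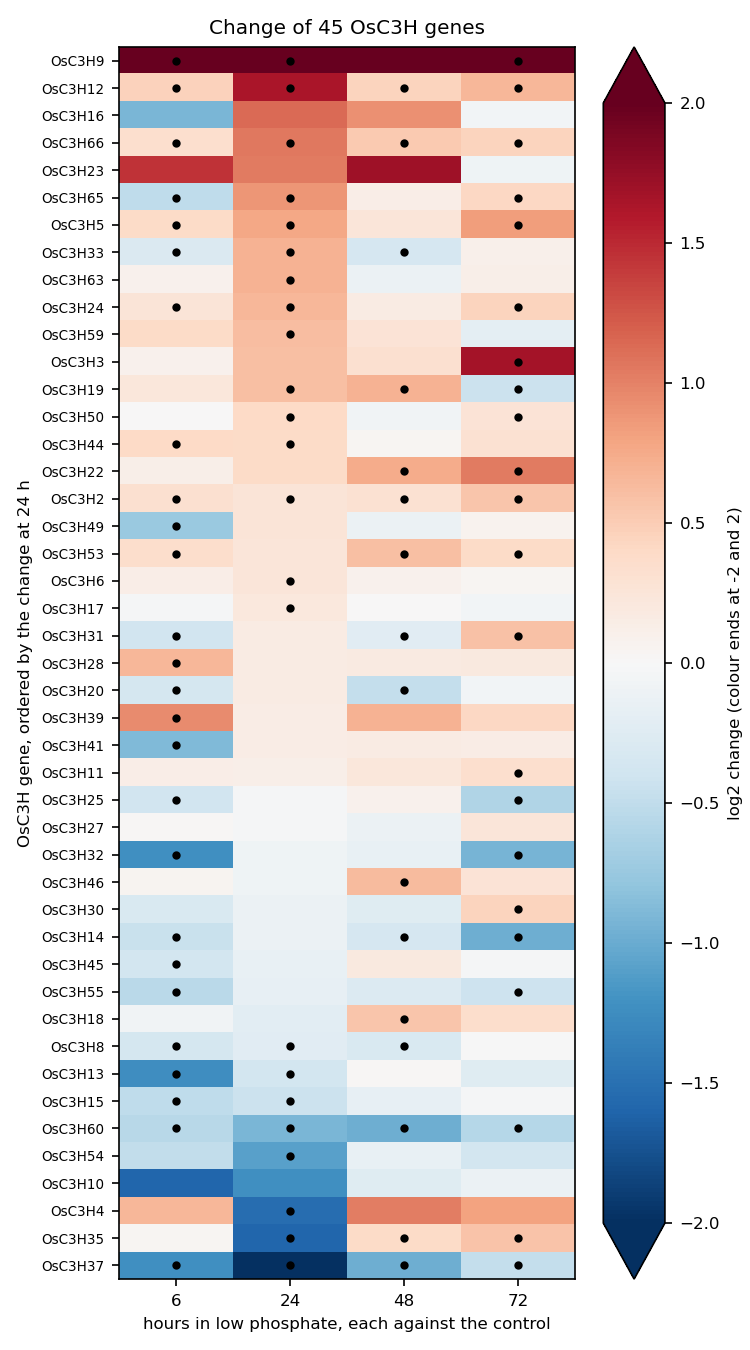
Log2 change against the control of the 45 tested OsC3H genes (rows, ordered by the change at 24 h) at 6, 24, 48 and 72 h (columns), red for higher and blue for lower in low phosphate. Black points mark calls at an adjusted p under 0.05. The fall of OsC3H37 after 24 h, 3.80 on the log2 scale, and the changes of OsC3H9 lie beyond the ends of the colour scale, and OsC3H10, OsC3H16 and OsC3H23 have deep colours without a call.

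The largest fall belonged to OsC3H37 (RefSeq gene LOC4339379). Its signal was 7869.7 and 8139.9 in the control, 3560.2 and 3266.9 after 6 h, 504.4 and 654.1 after 24 h, 4139.0 and 4023.1 after 48 h and 5724.8 and 5737.3 after 72 h. The 24 h arrays were far below those of every other group, and the 72 h arrays were still below both control arrays. The change was -1.23 ± 0.10 after 6 h (adjusted p = 1.1e-06), -3.80 ± 0.10 after 24 h (adjusted p = 4.08e-11), -0.97 ± 0.10 after 48 h and -0.48 ± 0.10 after 72 h. All 4 calls were kept under the alternatives run, and the 24 h change then lay between -3.99 and -3.61. The 72 h change was -0.98 with centred arrays. The 2 steps around 24 h were both called, with a change of -2.57 for 24 h against 6 h and of 2.83 for 48 h against 24 h.

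OsC3H35 (LOC4338037) was also at its lowest at 24 h, but was not called at 6 h and ended above the control. It had signals of 3293.0 and 3366.4 in the control, 3336.5 and 3510.3 after 6 h, 1185.6 and 1033.9 after 24 h, 4481.6 and 4211.6 after 48 h and 4875.7 and 5010.2 after 72 h. The arrays of 24 h lay below, and those of 48 h and 72 h above, both control arrays. The change was 0.04 ± 0.07 after 6 h, -1.59 ± 0.07 after 24 h (adjusted p = 4.29e-09), 0.38 ± 0.07 after 48 h and 0.57 ± 0.07 after 72 h. The 24 h fall is not of the same size on the gene's other probe sets, where the change was -1.09 and -0.09, and at 72 h these read -0.99 and -0.16. The rise at 72 h is thus given by this probe set alone, with -0.19 when the probe sets were averaged and 0.07 when the arrays were centred on their medians.

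OsC3H54 and OsC3H4 were the other genes among the 5 largest falls at 24 h, beside OsC3H60, which is described with the splicing factors. OsC3H54 had signals of 406.9 and 416.8 in the control, 309.9 and 277.3 after 6 h, 223.2 and 169.3 after 24 h, 326.9 and 422.7 after 48 h and 286.7 and 353.2 after 72 h. Its change at 24 h was -1.08 ± 0.19 (adjusted p = 0.000611), and it had no call at another time. OsC3H4 had 101.6 and 103.9 in the control, 194.3 and 138.2 after 6 h, 65.4 and 19.3 after 24 h, 207.5 and 210.0 after 48 h and 174.2 and 183.8 after 72 h, with a change of -1.53 ± 0.46 after 24 h (adjusted p = 0.0182). The 24 h arrays of OsC3H4 differed more from each other than the control arrays did. Without the 24 h array of replicate 2 its change was -0.65 and the call was lost, as it was without either control array, with changes of -1.55 and -1.52. Its signals at 48 h were above those at 24 h by 2.55 ± 0.46 on the log2 scale. The call of this step was kept under all alternatives run, and the step was 1.67 without the 24 h array of replicate 2. Against the control, OsC3H4 changed by 0.67, 1.02 and 0.80 after 6, 48 and 72 h, each ± 0.46. These arrays did not overlap the control, and none of these changes was called. The uneven 24 h arrays enter the standard error. With only the groups compared, the 48 h and 72 h changes were called (adjusted p = 0.007 and 0.0453). The 72 h change was 0.30 and not called with centred arrays.

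**Figure D3:**
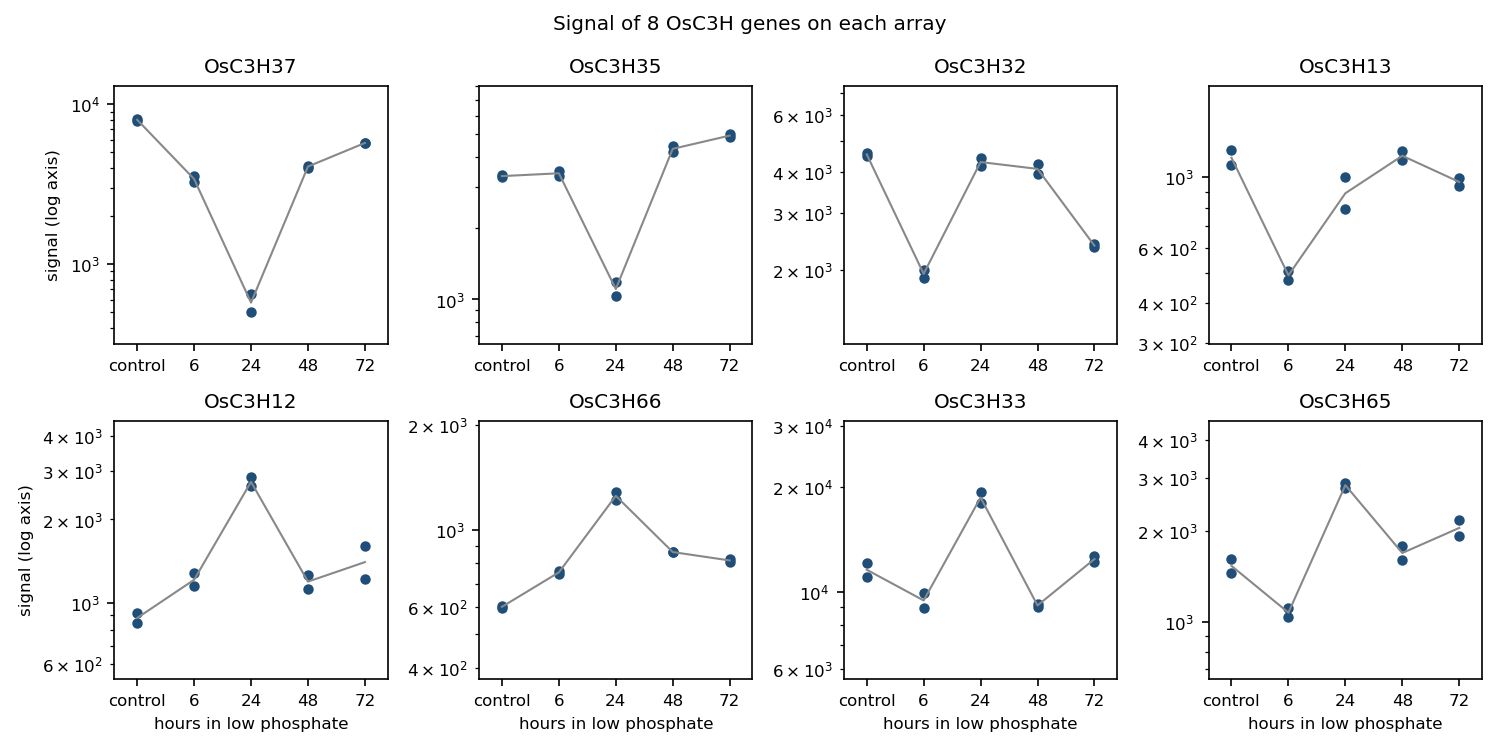
Signal of 8 OsC3H genes on each of the 10 arrays (points, log axis that differs between panels), in the control and after 6, 24, 48 and 72 h in low phosphate, with a line through the geometric mean of each group. OsC3H37 and OsC3H35 are lowest at 24 h, OsC3H32 and OsC3H13 are lowest at 6 h, and OsC3H12, OsC3H66, OsC3H33 and OsC3H65 are highest at 24 h.

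A separate set of genes was lowest at 6 h. OsC3H32 (LOC4337362) had signals of 4597.4 and 4482.8 in the control, 1899.9 and 2006.3 after 6 h, 4176.0 and 4425.6 after 24 h, 4238.2 and 3959.4 after 48 h and 2352.9 and 2412.6 after 72 h. It was low at 6 h and again at 72 h, and near the control in between. The change was -1.22 ± 0.06 after 6 h (adjusted p = 2.29e-08) and -0.93 ± 0.06 after 72 h (adjusted p = 2.4e-07, and -1.43 with centred arrays), while -0.08 after 24 h and -0.15 after 48 h were not called. OsC3H13 (bip105) had 1094.6 and 1217.2 in the control, 506.3 and 474.3 after 6 h, 1000.1 and 793.9 after 24 h, 1211.4 and 1132.1 after 48 h and 941.4 and 994.6 after 72 h. Its 6 h arrays lay far below the others, with a change of -1.24 ± 0.11 (adjusted p = 4.07e-06). At 24 h the change of OsC3H13 was -0.37, and its call was lost without the 24 h array of replicate 2 (-0.21) or the control array of replicate 2 (-0.30). OsC3H49 had 1280.1 and 1028.3 in the control, 685.6 and 692.9 after 6 h, 1297.7 and 1433.9 after 24 h, 1135.3 and 1002.0 after 48 h and 1207.4 and 1208.1 after 72 h. Its change was -0.74 ± 0.11 after 6 h (adjusted p = 0.000198), with no call later.

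The same direction at 6 h was seen with smaller changes in genes that are given here by their range. Beside the 5 largest falls (OsC3H13, OsC3H37, OsC3H32, OsC3H41 and OsC3H49), 11 genes were called lower at 6 h, with changes between -0.56 (OsC3H60) and -0.29 (OsC3H33). Of these, OsC3H14 had a change of -0.45 ± 0.10 that was not called without the 6 h array of replicate 2. OsC3H15 (-0.51), OsC3H55 (-0.54), OsC3H31 (-0.39), OsC3H25 (-0.38), OsC3H45 (-0.37) and OsC3H8 (-0.35) were among them too. The call of OsC3H25 was lost without either control array (-0.39 and -0.36) or the 6 h array of replicate 2 (-0.32). Those of OsC3H15 and OsC3H55 were lost when the probe sets of each gene were averaged (-0.17 and -0.15). The average of OsC3H55 took in a probe set under the filter, with a mean log2 signal of 1.3. The lowest group mean was that of the control in 14 of the 45 genes, of 6 h in 13, and of 24 h, 48 h and 72 h in 6 each. Among all tested genes the shares were 29% for the control, 19% for 6 h, 26% for 24 h, 11.2% for 48 h and 14.8% for 72 h.

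Several genes were highest at 24 h. OsC3H12 (LOC4324354), which is known in rice for resistance to the bacterial blight pathogen Xanthomonas oryzae, had signals of 848.2 and 915.9 in the control, 1146.4 and 1278.4 after 6 h, 2839.0 and 2633.7 after 24 h, 1125.5 and 1263.4 after 48 h and 1608.8 and 1222.5 after 72 h. The arrays of each low-phosphate group lay above both control arrays, and those of 24 h above all others. The change was 0.46 ± 0.12 after 6 h, 1.63 ± 0.12 after 24 h (adjusted p = 3.82e-07), 0.44 ± 0.12 after 48 h and 0.67 ± 0.12 after 72 h. Another bright probe set of the gene read 0.38, 1.46, 0.41 and 0.59 at the same times, and all 4 were called, while a dim one read 0.13, -0.26, -0.77 and 1.45 with no call. The 24 h call was kept under the alternatives run, although the change was 0.75 when the probe sets were averaged. The 72 h change was 0.17 with centred arrays and was then not called. With averaged probe sets the 6 h and 48 h changes were 0.63 and 0.16 and were not called. The average held the dim probe set and another under the filter, with a mean log2 signal of 3.08. The 6 h call was lost without the control array of replicate 1 (0.40) or the 6 h array of replicate 2 (0.38), and the 48 h call without the control array of replicate 1 (0.38) or the 48 h array of replicate 2 (0.35).

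OsC3H66 (LOC4352041) was also above the control at each time and highest at 24 h. It had signals of 595.3 and 605.1 in the control, 745.5 and 762.2 after 6 h, 1218.0 and 1284.1 after 24 h, 860.3 and 864.2 after 48 h and 823.7 and 807.9 after 72 h. No low-phosphate array overlapped the control. The change was 0.33 ± 0.08, 1.06 ± 0.08 (adjusted p = 6.65e-07), 0.52 ± 0.08 and 0.44 ± 0.08 at 6, 24, 48 and 72 h, and the 6 h call was lost without the 6 h array of replicate 2 (0.31).

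OsC3H65 and OsC3H33 were higher at 24 h after being lower at 6 h. OsC3H65 (LOC4351978) had 1455.0 and 1622.2 in the control, 1115.6 and 1038.9 after 6 h, 2895.2 and 2784.2 after 24 h, 1608.1 and 1785.9 after 48 h and 2186.0 and 1924.1 after 72 h. OsC3H33 (LOC4337692) had 12107.3 and 11031.5 in the control, 8959.0 and 9922.2 after 6 h, 17940.1 and 19375.3 after 24 h, 9191.6 and 9054.3 after 48 h and 12618.6 and 12190.3 after 72 h. In both genes the 6 h arrays were below and the 24 h arrays above the control arrays. For OsC3H65 the change was -0.51 ± 0.09 after 6 h, 0.89 ± 0.09 after 24 h (adjusted p = 5.59e-06), 0.14 ± 0.09 after 48 h and 0.42 ± 0.09 after 72 h. The gene's other tested probe set read -0.00, 0.28, 0.15 and 0.41 at these times with no call, and when both were averaged the 6 h change of OsC3H65 was -0.26 and not called (adjusted p = 0.305), while that at 24 h was 0.59 and called. For OsC3H33 it was -0.29 ± 0.06 after 6 h, 0.69 ± 0.06 after 24 h (adjusted p = 2.11e-06), -0.34 ± 0.06 after 48 h and 0.10 ± 0.06 after 72 h. The 48 h value of OsC3H33 was -0.13 after quantile normalisation and was then not called. The 6 h call of OsC3H33 was lost without the intensity trend. The other tested probe set of OsC3H33 read -0.12 after 6 h and was not called. It was called at 24 h (0.30) and 48 h (-0.56) in the same directions, and read -0.32 after 72 h.

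OsC3H5 was called higher at 3 times. It had signals of 891.2 and 831.6 in the control, 1103.8 and 1137.7 after 6 h, 1411.3 and 1558.0 after 24 h, 1105.2 and 930.2 after 48 h and 1558.9 and 1495.5 after 72 h. The change was 0.38 ± 0.10 after 6 h, 0.78 ± 0.10 after 24 h (adjusted p = 3.18e-05), 0.24 ± 0.10 after 48 h and 0.83 ± 0.10 after 72 h (adjusted p = 2.94e-05). Its other probe set read 0.49, 1.16, 0.43 and 0.66, with calls at the same 3 times. The 6 h call was lost without the control array of replicate 2 (0.33) or the 6 h array of replicate 2 (0.36). OsC3H24 was called at the same times, with 0.26 after 6 h, 0.66 after 24 h and 0.45 after 72 h, of which the 24 h call was kept under the alternatives run. The 6 h call of OsC3H24 was lost without the control array of replicate 2 (0.20) or the 6 h array of replicate 2 (0.25). OsC3H63 was called higher at 24 h (0.69), when its signals were 2508.4 and 2543.3, against 1938.4 and 1272.7 in the control. With the second, dim probe set of OsC3H63 averaged in, that change was -1.38.

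Of the 5 largest rises at 6 h (OsC3H9, OsC3H39, OsC3H28, OsC3H12 and OsC3H44), only that of OsC3H28 was still called whichever array was left out. OsC3H28 had signals of 588.8 and 538.7 in the control, 983.1 and 816.9 after 6 h, 696.5 and 574.4 after 24 h, 587.6 and 691.1 after 48 h and 646.7 and 647.8 after 72 h. Its 6 h change was 0.67 ± 0.13 (adjusted p = 0.00166), and that call was kept under the alternatives run. OsC3H39 had 126.8 and 109.2 in the control, 203.2 and 253.9 after 6 h, 98.0 and 174.3 after 24 h, 178.2 and 201.4 after 48 h and 159.2 and 154.8 after 72 h. The 6 h arrays of OsC3H39 lay above the control arrays, by 0.95 ± 0.28 (adjusted p = 0.0197). That call was lost without the control array of replicate 2 (0.84) or the 6 h array of replicate 2 (0.79). OsC3H44 had 841.4 and 610.9 in the control, 953.4 and 937.6 after 6 h, 919.4 and 959.2 after 24 h, 746.3 and 731.4 after 48 h and 935.5 and 829.6 after 72 h. Its 6 h change was 0.40 ± 0.13 (adjusted p = 0.0327), and 0.17 and not called without the control array of replicate 2. The call of OsC3H44 was also lost without either 6 h array (0.39 and 0.41). The control arrays of OsC3H44 differed more from each other than the 6 h arrays did.

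OsC3H9 had the largest rises of the family, and their size rested on 1 control array. Its signals were 43.4 and 1.6 in the control, 75.0 and 92.2 after 6 h, 154.6 and 179.2 after 24 h, 39.5 and 62.6 after 48 h and 81.8 and 56.4 after 72 h. The second control array lay under the filter level of 23.9, and the first control array overlapped the 48 h arrays. The change was 3.32 ± 1.11 after 6 h, 4.32 ± 1.11 after 24 h (adjusted p = 0.0079) and 3.03 ± 1.11 after 72 h. Without the control array of replicate 2 these were 0.94, 1.94 and 0.65, and only the 24 h change was then called. The 6 h call was also lost in 5, and the 72 h call in 8, of the other settings that left out 1 array.

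At 48 h 16 members were called, which is 35.6%, beside 45.8% of all tested genes. The share of all tested genes called was 51.0% at 6 h, 54.6% at 24 h and 50.9% at 72 h. The median size of a member's change, whatever its sign, was 0.28 at 48 h, beside 0.38 at 6 h, 0.38 at 24 h and 0.37 at 72 h. That size was not taken for all genes. The 5 largest rises at 48 h were those of OsC3H22, OsC3H19, OsC3H46, OsC3H53 and OsC3H18. OsC3H19 had signals of 583.9 and 536.2 in the control, 648.3 and 653.1 after 6 h, 826.4 and 867.4 after 24 h, 951.7 and 860.6 after 48 h and 404.4 and 426.6 after 72 h. It was above the control at 24 h (0.60 ± 0.10) and 48 h (0.69 ± 0.10, adjusted p = 0.000241) and below it at 72 h (-0.43 ± 0.10, adjusted p = 0.00518), and these calls were kept under the alternatives run, with -0.93 at 72 h on centred arrays. OsC3H53 had 1513.8 and 1249.8 in the control, 1755.3 and 1762.6 after 6 h, 1543.3 and 1710.5 after 24 h, 2012.8 and 2155.1 after 48 h and 1850.3 and 1744.3 after 72 h. All low-phosphate arrays of OsC3H53 lay above the control arrays, and its 48 h change was 0.60 ± 0.09 (adjusted p = 0.000398). Its other tested probe set read 0.15 at 48 h, and the change was 0.23 and not called when its probe sets were averaged. That average took in a further probe set of OsC3H53 under the filter, with a mean log2 signal of 2.73. OsC3H18 had 894.8 and 940.2 in the control, 820.3 and 926.1 after 6 h, 859.5 and 730.8 after 24 h, 1390.3 and 1291.7 after 48 h and 1359.3 and 1008.0 after 72 h. The 48 h change of OsC3H18 was 0.55 ± 0.13 (adjusted p = 0.00811). The OsC3H18 call was lost without the control array of replicate 1 (0.51) or the 48 h array of replicate 1 (0.49). Of its other probe sets, one read 0.76 and was called, and the other read 0.34 and was not called (adjusted p = 0.056).

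The group mean of OsC3H22 was higher at each later time. It had signals of 219.9 and 189.8 in the control, 193.4 and 249.7 after 6 h, 257.9 and 275.7 after 24 h, 332.1 and 352.7 after 48 h and 378.4 and 469.3 after 72 h. The 6 h arrays overlapped the control and the later ones did not. The change was 0.11 ± 0.18, 0.38 ± 0.18, 0.74 ± 0.18 and 1.04 ± 0.18 at 6, 24, 48 and 72 h, with calls at 48 h (adjusted p = 0.00789) and 72 h (adjusted p = 0.000692). The 48 h call was lost without the control array of replicate 2 (0.64) or the 48 h array of replicate 2 (0.70). OsC3H23, its direct neighbour in the gene order of the RefSeq table, had dim and uneven signals of 34.3 and 19.8 in the control, 117.9 and 42.7 after 6 h, 54 and 53.5 after 24 h, 84.5 and 83.1 after 48 h and 57.1 and 10.6 after 72 h, and was called at no time.

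The 72 h counts depended on the scaling of the arrays. Centring each array on its median moved the all-gene median of the 72 h change by -0.50. The split of 15 higher and 7 lower members then became 2 higher and 19 lower, beside 6.78% higher and 46.7% lower among all tested genes on centred arrays, while quantile normalisation left it at 15 and 7. All 15 genes called higher at 72 h lay above the median of all genes (0.149) as deposited. A higher call all but required this, so it is no separate support for the rises. After centring, 7 of the 15 were below 0 (OsC3H11, OsC3H24, OsC3H30, OsC3H50, OsC3H53, OsC3H65 and OsC3H66) and 2 were still called higher, OsC3H22 (0.55) and OsC3H5 (0.33). The 7 genes called lower at 72 h were also called lower after centring, with changes from -1.47 (OsC3H14) to -0.91 (OsC3H55). Centring lowered all 72 h changes against the control, so it could hardly remove a lower call and is no check on these 7. The same holds for the centred 72 h values given with single lower genes elsewhere. Centring also changed the split at 24 h from 15 and 8 to 9 higher and 8 lower (all genes then 22.9% and 28.4%). Quantile normalisation changed that at 48 h from 9 and 7 to 7 higher and 10 lower (all genes then 23.6% and 16.6%).

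Among the 7 genes called lower at 72 h, the largest change was that of OsC3H14. Its signals were 2222.0 and 2086.1 in the control, 1755.2 and 1425.0 after 6 h, 2065.5 and 1903.6 after 24 h, 1746.1 and 1657.9 after 48 h and 1041.8 and 1158.8 after 72 h. The 72 h change was -0.97 ± 0.10 (adjusted p = 1.11e-05), which is -1.12 relative to the median of all genes. OsC3H14 was also lower at 48 h, with a change of -0.34 ± 0.10, a call that was lost without the control array of replicate 1 (-0.29) or without either 48 h array (-0.38 and -0.30). OsC3H25 had 557.6 and 566.9 in the control, 448.9 and 418.1 after 6 h, 542.0 and 566.2 after 24 h, 594.4 and 594.4 after 48 h and 345.4 and 395.9 after 72 h. Its 72 h change was -0.60 ± 0.11 (adjusted p = 0.00125), which is -0.75 relative to that median. Both genes had non-overlapping arrays at 72 h, which the rule by which they were named required.

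Of the rises at 72 h, that of OsC3H3 was 1.66 ± 0.49 (adjusted p = 0.0174), and 1.16 and not called with centred arrays. Its signals were 50 and 32.2 in the control, 51.5 and 35.5 after 6 h, 59.8 and 61.6 after 24 h, 37.6 and 66.7 after 48 h and 131.8 and 121.6 after 72 h. The 72 h arrays of OsC3H3 lay above all others, and the call was lost without either 72 h array (1.6 and 1.72) and without the control array of replicate 2 (1.34). OsC3H31 had 2526.6 and 2419.6 after 72 h and 1628.6 and 1647.0 in the control, a change of 0.59 ± 0.07 (adjusted p = 5.4e-05), or 0.44 relative to the all-gene median and 0.10 after centring. At 6 h OsC3H31 was lower, with 1281.2 and 1213.0 and a change of -0.39 ± 0.07 (adjusted p = 0.00118). Its call at 48 h (-0.23) was lost without either control array (-0.24 and -0.22) or the 48 h array of replicate 2 (-0.15). OsC3H30 was called higher at 72 h only (0.44), and at -0.06 after centring it was on the other side of 0.

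Members with a second published name are given here by role, starting with splicing. OsC3H60 is U2AF35A, a form of the small subunit of the splicing factor U2AF, which recognises the 3′ end of introns, and OsC3H38 is the other form. OsC3H60 (LOC9268567) had signals of 6278.7 and 6225.5 in the control, 4182.0 and 4299.8 after 6 h, 3127.9 and 3467.5 after 24 h, 3208.6 and 3190.0 after 48 h and 4569.7 and 3855.5 after 72 h. All 8 low-phosphate arrays lay below both control arrays. The change was -0.56 ± 0.08 after 6 h, -0.92 ± 0.08 after 24 h (adjusted p = 1.07e-06), -0.97 ± 0.08 after 48 h (adjusted p = 1.87e-06) and -0.57 ± 0.08 after 72 h, and the 4 calls were kept under the alternatives run, with -1.07 at 72 h on centred arrays.

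OsC3H2 is OsDOS, a nuclear protein known to delay leaf senescence in rice. Its signals were 8570.0 and 8176.8 in the control, 10446.6 and 10515.9 after 6 h, 10937.5 and 9227.1 after 24 h, 11498.5 and 9289.2 after 48 h and 11809.6 and 12635.1 after 72 h. Each low-phosphate array exceeded both control arrays. The change was 0.32, 0.26, 0.30 and 0.55 at 6, 24, 48 and 72 h, each ± 0.09, with adjusted p of 0.0173, 0.0429, 0.0272 and 0.000633. The 3 earlier calls were not kept when arrays were left out. The 24 h call was lost in 7 such settings and the 6 h and 48 h calls in 3 each, and the lowest values in those settings were 0.29 at 6 h (without the control array of replicate 2), 0.14 at 24 h (without the 24 h array of replicate 1) and 0.15 at 48 h (without the 48 h array of replicate 1). The 72 h change was 0.05 after centring and was then not called. The other probe set of OsDOS read between 0.20 and 0.52 over the 4 times with no call.

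OsC3H46 is OsLIC, a transcription factor that opposes brassinosteroid responses and affects leaf and tiller angle. It had signals of 301.5 and 235.7 in the control, 284.4 and 267.7 after 6 h, 208.7 and 302.5 after 24 h, 401.4 and 428.5 after 48 h and 290.7 and 356.8 after 72 h. Its arrays overlapped the control at all times but 48 h. The 48 h change was 0.64 ± 0.20 (adjusted p = 0.0313), and that call was lost without the control array of replicate 2 (0.46), without either 48 h array (0.68 and 0.59) and after quantile normalisation (0.45). OsC3H20 is Ehd4, which promotes flowering in rice upstream of Ehd1, and its changes were -0.35 ± 0.08 after 6 h, 0.16 after 24 h, -0.47 ± 0.08 after 48 h and -0.05 after 72 h. Its signals were 1363.0 and 1328.3 in the control, 1097.8 and 1014.5 after 6 h, 1563.0 and 1452.5 after 24 h, 962.0 and 984.0 after 48 h and 1383.1 and 1228.8 after 72 h. The 48 h call of Ehd4 (adjusted p = 0.00116) was kept under the alternatives run, and the 6 h call was lost without the 6 h array of replicate 2 (-0.29).

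OsC3H41 is MKRN, a makorin, which combines CCCH fingers with a RING domain typical of ubiquitin ligases. Its signals were 1308.7 and 1351.0 in the control, 687.1 and 762.5 after 6 h, 1274.2 and 1708.5 after 24 h, 1533.3 and 1458.3 after 48 h and 1391.5 and 1571.8 after 72 h. The 6 h arrays lay below all others, with a change of -0.88 ± 0.12 (adjusted p = 0.000123). At 24, 48 and 72 h it read 0.15, 0.17 and 0.15 with no call. OsC3H41 was thus called at 6 h only, and its step to 24 h was 1.03 ± 0.12 (adjusted p = 2.76e-05).

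OsC3H10 and OsC3H47 are known in rice for drought tolerance, and both were dim on these arrays. OsC3H10 had signals of 45 and 72.2 in the control, 41.5 and 8.7 after 6 h, 50.7 and 11.6 after 24 h, 55.9 and 41.3 after 48 h and 55.5 and 49.5 after 72 h, and was called at no time. Its changes of -1.58 after 6 h and -1.23 after 24 h had a standard error of 0.89. OsC3H47 was below the filter and was not tested. It had 31.5 and 25.4 after 6 h, 22.2 and 14.8 after 24 h, 26.3 and 11.2 after 48 h and 54.3 and 31.0 after 72 h, against 2.4 and 4.8 in the control, so no low-phosphate array overlapped the control. At these signals both control arrays are under the filter level of 23.9, and no fold change is given. OsC3H43, also untested, had between 9.8 and 60.6 in low phosphate and 1.5 and 3.8 in the control. OsC3H1 lay between 1.6 and 16.3 and OsC3H34 between 2.6 and 77.4 over all 10 arrays. OsC3H40 had 4.0 and 4.3 after 48 h and between 24.3 and 52.5 on the other arrays.

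The remaining genes with a call had called changes of at most 0.62 in size on the probe set used. OsC3H17 (0.21), OsC3H6 (0.24), OsC3H50 (0.40) and OsC3H59 (0.62) were called higher at 24 h, and OsC3H50 (0.28) and OsC3H11 (0.33) after 72 h. The OsC3H59 call was lost in 7, that of OsC3H17 in 2, that of OsC3H6 in 2 and that of OsC3H50 in 1 of the 10 settings that left out an array. The 72 h calls of OsC3H50 and OsC3H11 were lost in 7 and 3 of them. The other probe set of OsC3H11 read 0.18, 0.55, 0.68 and 0.45 at 6, 24, 48 and 72 h, with calls at all but 6 h. With its probe sets averaged, OsC3H11 was called higher at 24 h (0.34) and 48 h (0.45) too. OsC3H8 was lower at 6 h (-0.35), 24 h (-0.23) and 48 h (-0.31), OsC3H15 after 6 h (-0.51) and 24 h (-0.43), OsC3H55 after 6 h (-0.54) and 72 h (-0.41), and OsC3H45 after 6 h (-0.37). Of these the 24 h call of OsC3H8, the 72 h call of OsC3H55 and the 6 h call of OsC3H45 were each lost in 2 of the 10 settings. Of all 87 calls against the control, 34 were kept under every alternative run.

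The steps between successive times place these changes. Their values do not use the control signals, but the fit's spread and the filter do, and without 1 control array the counts of called steps lay within 2 of those given here. From 6 to 24 h, 20 of the 45 genes were higher and 7 lower, against 25.7% and 27.6% of all tested genes, and the members' shares were 44.4% and 15.6%. From 24 to 48 h, 9 were higher and 12 lower (all genes 27.8% and 21.8%). From 48 to 72 h, 12 were higher and 4 lower (all genes 19.8% and 19.1%), and with centred arrays this last split was 1 higher and 25 lower (all genes then 2.39% and 59%). The 6 to 24 h step held the genes that were low at 6 h, OsC3H32 (1.14 ± 0.06), OsC3H41 (1.03 ± 0.12), OsC3H49 (0.98 ± 0.11) and OsC3H13 (0.86 ± 0.11), and those that were high at 24 h, OsC3H65 (1.40 ± 0.09), OsC3H12 (1.18 ± 0.12, and 0.11 with its probe sets averaged) and OsC3H33 (0.98 ± 0.06). OsC3H16, with no call against the control, was higher by 2.05 ± 0.54 in that step, from 6 h signals of 51.1 and 18.9, of which the second is under the filter level. Its step was 1.34 and not called without the 6 h array of replicate 2, and 1.79 and not called without the 24 h array of replicate 2. The lower ones in that step were led by OsC3H37 (-2.57 ± 0.10), OsC3H4 (-2.21 ± 0.46) and OsC3H35 (-1.63 ± 0.07). At the next step these 3 were higher at 48 h than at 24 h, by 2.83, 2.55 and 1.97, and OsC3H12 (-1.20, and -0.59 and not called with its probe sets averaged) and OsC3H33 (-1.03) were lower. With averaged probe sets the 6 to 24 h steps of OsC3H35 and OsC3H65 were -0.93 and 0.84, and both were called. From 48 to 72 h the largest called changes were those of OsC3H19 (-1.12 ± 0.10) and OsC3H31 (0.82 ± 0.07), or -1.64 and 0.31 with centred arrays. Of the 45 genes, 14 had their highest group mean at 24 h and 3 after 6 h, where the shares among all genes were 22.6% and 20.7%.

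The series text names genes by fold alone, and a ratio beyond 2-fold between the mean linear signals of 2 groups took fewer members. At 6 h it took OsC3H9 and OsC3H23 as higher and OsC3H10, OsC3H13, OsC3H32 and OsC3H37 as lower, where 9.77% of all genes were higher and 4.92% lower. At 24 h it took 4 as higher (OsC3H9, OsC3H12, OsC3H16 and OsC3H66) and 4 as lower (OsC3H4, OsC3H35, OsC3H37 and OsC3H54), with 10.2% and 8.05% of all genes. At 48 h it took OsC3H4, OsC3H9 and OsC3H23 as higher and none as lower (all genes 7.42% and 3.87%). At 72 h it took OsC3H3, OsC3H9 and OsC3H22 as higher and none as lower (all genes 8.92% and 5.1%). OsC3H10, OsC3H16 and OsC3H23, which pass this rule at some time, had no limma call against the control. OsC3H16 had 107.4 and 154.8 after 24 h and 68.8 and 50.2 in the control, a change of 1.13 ± 0.54 with an adjusted p of 0.121.

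Of the 50 genes, 14 had more than 1 probe set of their own, and 13 had another that passed the filter, 16 such probe sets in all. Both readings were called in the same direction for 3 of the 16 after 6 h, 4 after 24 h, 5 after 48 h and 3 after 72 h. Opposite calls occurred for 1 after 24 h, OsC3H8 (-0.23 on the probe set used and 0.49 on the other). At 72 h they occurred for 3, OsC3H35 (0.57 and -0.99), OsC3H53 (0.39 and -0.92) and OsC3H55 (-0.41 and 0.90). At 72 h the other probe set of OsC3H8 read -2.11 (adjusted p = 2.08e-08) where the one used read -0.01, and at 24 h another of OsC3H18 read -1.55 where the one used read -0.21. Which transcript forms the probe sets read was not tested. OsC3H37, OsC3H32, OsC3H66 and OsC3H60 had a single probe set of their own.

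**Figure D4:**
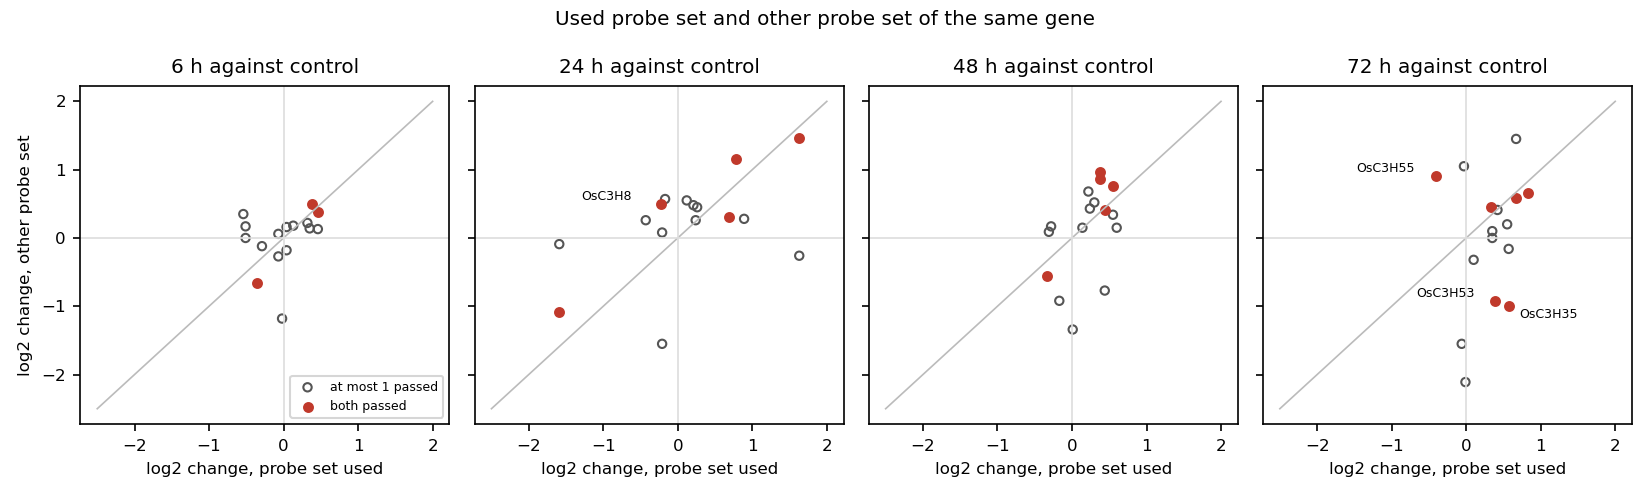
Log2 change against the control on the probe set used (horizontal) and on another tested probe set of the same OsC3H gene (vertical), 16 pairs in each panel, with the line of equal change. Filled red points are pairs in which both were called, and the named ones are called in opposite directions, which are 1 pair at 24 h and 3 pairs at 72 h.

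Other gene lists give the setting of these changes. Among all tested genes, 28.6%, 29.4%, 28.5% and 31.1% were higher at 6, 24, 48 and 72 h. The shares lower at these times were 22.4%, 25.2%, 17.2% and 19.8%. Of the 12 tested A20/AN1 zinc finger genes, another family of stress-associated zinc finger proteins, 2 were higher and 3 lower at 6 h, 4 and 6 after 24 h, 1 and 6 after 48 h, and 4 and 5 after 72 h. Their median changes were -0.10, -0.17, -0.41 and -0.24, with ISAP1 lower each time (-0.85, -1.86, -1.42 and -1.41). Of the 11 tested abscisic acid response genes, 3 were higher and 5 lower at 6 h, 9 higher at 24 h, 5 lower at 48 h, and 4 higher and 1 lower at 72 h. Their median changes were -0.68, 1.18, -0.54 and 0.36. The 24 h value stands beside 15 OsC3H genes called higher and 8 called lower at that time, with a median change of 0.17 over the 45. The relation between these genes and the abscisic acid list was not tested. Of the 7 chlorophyll breakdown and senescence genes, OsDOS among them, 1 was higher and 2 lower at 6 h, 3 and 2 after 24 h, 1 and 3 after 48 h, and 2 and 3 after 72 h. Of the 6 tested phosphate-starvation markers, 1 was higher at 6 h, 2 after 24 h, 3 after 48 h and 4 after 72 h, with 1 lower at 24 h. The median changes of these markers were 0.37, 0.52, 0.65 and 0.53, and OsSPX1 read 0.18, 0.47, 0.52 and 0.34. The 4 called at 72 h were OsMGD3 (0.35), OsPht1;2 (0.57), OsSPX1 (0.34) and OsSPX5 (1.78 ± 0.63, adjusted p = 0.0417). The 4 abscisic acid response genes called higher at 72 h had changes between 0.36 (TRAB1) and 0.57 (OsLEA3-1). The lists were not run on centred arrays, where the all-gene median of the 72 h change moved by -0.5. No gene matched the messenger RNA decay list.

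Organ markers also differed between the groups. The summed signal of 5 shoot markers was between 88951 and 89333 in the control, 97821 and 98340 after 6 h, 64495 and 65580 after 24 h, 74744 and 78543 after 48 h and 68138 and 70400 after 72 h. That of 7 root markers was between 55601 and 56582 in the control, 49070 and 51103 after 6 h, 39078 and 40592 after 24 h, 52437 and 55398 after 48 h and 64275 and 64903 after 72 h. That of 6 seed reserve markers was between 1616 and 3437 over the low-phosphate arrays and 6201 and 6523 in the control. Of these, AMY3D had changes of -5.16, -3.50, -4.50 and -2.27 at 6, 24, 48 and 72 h. At 72 h it was the only 1 of the 4 tested seed reserve markers that was called, and RAG2 read 0.17. The shoot sum and the root sum were lowest at 24 h, when OsC3H37 and OsC3H35 were lowest, but the markers did not move together. At 24 h, 2 shoot markers were higher, RBCS (0.40) and rca (0.65), and 3 were lower, led by CAB2R (-3.22). Of the root markers 1 was then higher, OsHAK1 (1.24), and 2 lower, led by Lsi1 (-1.26). The median change of the root markers was -0.24 after 6 h and -0.08 after 24 h. All the shoot and root markers and 4 of the seed reserve markers passed the filter. The part of organ shares in the OsC3H values was not tested.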

How the data were processed

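RNA of 10 rice seedling samples was hybridised to Affymetrix rice arrays, with 8 µg of total RNA made into labelled target, per the labels' protocols. Each array has 1 linear signal intensity per probe set, deposited by the authors and made with GCOS and MAS5, per the submitters' processing notes, which name no version. The trimmed mean (2% at each end) was 500.1 on all 10 arrays. Of 57381 probe sets, 123 were controls, and 22436 are annotated to 1 gene, 95 to several and 34727 to none. Groups came from the sample titles.

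Deposited signals were converted to log2 without an offset. Probe sets other than controls with a mean log2 signal above the 40th percentile were tested (34355), with limma 3.58.1 in R 4.3.3 (group means, eBayes with an intensity trend, 5 residual and 6.5 prior degrees of freedom). Tests were two-sided, with Benjamini-Hochberg adjustment over the probe sets of each comparison. The p-values measure the spread between 2 arrays per group, and this number limits the precision of every value. Shares of all genes use 1 probe set per gene. An exact permutation test of 2 against 2 arrays cannot go below 0.333 and was not used. The fit was tested on simulated data.

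The members and lists were chosen with earlier results of these data known. Genes are given with all signals when they were among the 5 largest called rises or falls of a comparison with the control, with arrays that did not overlap, or when they carry a second published symbol. Other genes, such as OsC3H24, OsC3H63, OsC3H31, OsC3H16, OsC3H23, OsC3H10 and OsC3H47, were added after their values were seen. Probe set names come from the array annotation and no genome build was used. Protein and promoter sequences were not used here. Alternatives were other filters, quantile normalisation, median centring, an offset of 16, no intensity trend, only the groups compared, a replicate block, the average of a gene's probe sets, and each array left out. The average took in all probe sets annotated to the gene alone, also those under the filter.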

Additional observations from a re-analysis of the deposited data

Results flagged for a closer look

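In 5 genes, and 6 steps between successive times, the gene was called on one side of the control at the earlier time and on the other side at the later time, and the step itself was called. These are 11.1% of the 45 members, and 11.9% of all tested genes met the same condition at least once. OsC3H33 changed by 0.98 ± 0.06 from 6 to 24 h (adjusted p = 1.1e-07), being 0.69 above the control at 24 h and -0.29 at 6 h. OsC3H33 then changed by -1.03 ± 0.06 from 24 to 48 h (adjusted p = 9.43e-08), to -0.34 against the control. On the other tested probe set of OsC3H33 the 6 h value was -0.12 and not called. OsC3H65 changed by 1.4 ± 0.09 from 6 to 24 h (adjusted p = 1.18e-07), with 0.89 at 24 h and -0.51 at 6 h. With the probe sets of OsC3H65 averaged, the 6 h value was -0.26 and not called.

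OsC3H35 changed by 1.97 ± 0.07 from 24 to 48 h (adjusted p = 1.09e-09), with 0.38 at 48 h and -1.59 at 24 h. OsC3H19 changed by -1.12 ± 0.10 from 48 to 72 h (adjusted p = 5.56e-06), with -0.43 at 72 h and 0.69 at 48 h. OsC3H31 changed by 0.82 ± 0.07 from 48 to 72 h (adjusted p = 5.59e-06), with 0.59 at 72 h and -0.23 at 48 h. With median centring the last 2 steps read -1.64 and 0.31.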

How the results depend on the processing

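The replicate numbers shared by the groups did not pair the arrays, since deviations of same-numbered arrays correlated with r between -0.009 and 0.017 over 10 pairs of groups. With the replicate number as a block, 26, 23, 16 and 22 members were called at 6, 24, 48 and 72 h, and 27, 22 (21 without the block), 16 and 37 (39 without it) in the 3 steps and the F-test. Leaving out 1 array at a time gave 14 to 27 calls at 6 h, 16 to 22 at 24 h, 12 to 19 at 48 h and 16 to 24 at 72 h. In the steps it gave 20 to 27, 16 to 23 and 13 to 19, and in the F-test 32 to 38. The lowest 6 h count, 14, came without the 6 h array of replicate 2. Without the intensity trend 14 members were called at 24 h and 10 at 48 h, and with median centring 26 in the step from 48 to 72 h. A ratio limit of 1.5 in place of 2 took 12, 18, 11 and 10 members in place of 6, 8, 3 and 3. The other alternatives kept the counts within 1.5 times, including the one chosen after seeing the data, without the 72 h arrays. With median centring 18 changes turned direction at 72 h, and in 11 of them a call was involved, those of OsC3H6 (-0.46), OsC3H11 (-0.17), OsC3H24 (-0.05), OsC3H30 (-0.06), OsC3H33 (-0.40), OsC3H41 (-0.35), OsC3H49 (-0.42), OsC3H50 (-0.22), OsC3H53 (-0.11), OsC3H65 (-0.08) and OsC3H66 (-0.06). With the probe sets of a gene averaged, 2 changes turned at 24 h and 5 at 72 h. A call was involved for OsC3H8 (0.13) and OsC3H63 (-1.38) at 24 h and for OsC3H35 (-0.19) and OsC3H55 (0.59) at 72 h. Apart from these, 1 uncalled change at 6 h turned under each of the 2 settings and 1 at 48 h under averaging. Dim probe sets such as that of OsC3H9 set wide errors, and the causes of these shifts were not tested.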
